A study of Mus musculus with 13 samples.

Results

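A set of 9 genes of cardiac adrenergic and cyclic AMP signalling was followed in Hmox2+/+ and Hmox2-/- mice: the receptors Adrb1, Adra1a and Adra1b, the G protein gene Gnas, the adenylyl cyclases Adcy5 and Adcy6, the phosphodiesterases Pde3a and Pde4d, and the protein kinase A subunit Prkar1a. They were chosen by name, with earlier results of these data known. They are 9 of the 36158 genes to which the listed transcripts could be assigned. RNA had been sequenced from whole hearts of 4 Hmox2+/+ and 3 Hmox2-/- mice and from aortic endothelial cells (ECs) of 3 Hmox2+/+ and 3 Hmox2-/- mice, all kept in room air. The Hmox2-/- mice carry a deletion of heme oxygenase 2 in every cell, and the study used them as a model of sleep apnea beside wildtype littermates. They were described as young, and their sex and exact age are not given in the sources used here. Heart RNA came from all cells of the pulverized organ; fewer cells of a type and less RNA per cell therefore cannot be told apart. EC RNA was taken by flushing lysis reagent through the inside of the aorta, and no sorting of cells is described.

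Noradrenaline and adrenaline act on the heart through beta and alpha1 receptors. Beta1 receptors couple through the stimulatory G protein to adenylyl cyclase, which makes cyclic AMP. Cyclic AMP frees the catalytic subunits of protein kinase A (PKA) from their regulatory subunits. PKA then phosphorylates calcium channels, phospholamban and troponin I. Activation of beta receptors as a whole raises the rate and force of contraction. Phosphodiesterases break cyclic AMP down, and anchoring proteins hold kinase and phosphodiesterase beside their substrates. Alpha1 receptors act through another G protein and phospholipase C.

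Hmox2 fell to 20.3% of the wildtype level in heart tissue (39.8 ± 2.26 to 8.08 ± 0.724 CPM, n = 4 and 3) and to 19.7% in ECs (68.7 ± 6.54 to 13.6 ± 1.08 CPM, n = 3 and 3), without overlap. CPM are counts scaled to the normalized library, given as mean ± SD of the mice. Of the 31-base words in Hmox2 transcripts, 74.0% also occur elsewhere, mostly in Cdip1, and the remaining level is therefore uncertain. It also depended on the processing. The log2 fold change of Hmox2 was -2.30 in hearts and -2.34 in ECs, but as small as -1.09 and -1.155 under the alternatives. Total counts were 26067147 to 31619776 per library except for the first Hmox2+/+ heart with 7268626. The share of counts from mitochondrially encoded transcripts spanned 37.6% to 44.3% across wildtype hearts, and that of the knockouts 22.6% to 27.2%. Of the 7 cardiomyocyte markers, all were present in hearts, with summed levels of 43200 to 48100 CPM in wildtype and 45300 to 51200 CPM in knockout hearts (4 of 7 higher). All 5 erythroid markers were higher in knockout hearts, from a sum of 183 to 341 CPM to one of 887 to 1460 CPM, as were 2 of 7 endothelial and 2 of 5 smooth muscle markers, while 2 of 5 fibroblast markers were lower. The part of these cells in the heart values below was not tested. Of the 7 endothelial markers, all were present in ECs (2910 to 6350 CPM), but adipocyte markers were as high there (4600 to 7100 CPM in both genotypes), and smooth muscle markers reached 983 to 6050 CPM. The Y-linked gene Ddx3y was at 1.03 and 0.920 CPM in the Hmox2-/- EC libraries of replicates 2 and 3. It was at 37.0 to 86.5 CPM in the other 11 libraries, so these 2 libraries stand apart. Hmox2+/+ EC libraries had 61.7 to 66.8 CPM of Ddx3y. Any difference of sex would thus go with genotype in the EC comparison and in the interaction, and its part was not tested.

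Levels can be compared between genes per length, in TPM (transcript abundance scaled to a common total). In Hmox2+/+ hearts Gnas was highest (333 ± 41.1 TPM, n = 4), followed by Prkar1a (141 ± 17.2) and Adcy6 (36.1 ± 5.51), and none of these ranges overlapped. Adra1b (13.98 ± 0.901), Adcy5 (13.5 ± 2.89) and Pde3a (11.5 ± 1.45) overlapped each other in turn. Pde4d (7.70 ± 0.650), Adra1a (6.20 ± 0.344) and Adrb1 (4.43 ± 1.14) were lowest, and adjacent ranges did not overlap. The same 9 genes stood in the same order in Hmox2-/- hearts, where all neighbours from Adra1b down overlapped. In Hmox2+/+ ECs Gnas (1225 ± 139 TPM, n = 3), Prkar1a (85.4 ± 13.7) and Adcy6 (32.2 ± 3.15) again led, and Adra1b was last at 0.457 ± 0.249 TPM. Pde3a (19.2 ± 4.98) and Pde4d (17.4 ± 4.34) overlapped there, as did Adcy5 (10.98 ± 1.55), Adra1a (7.64 ± 2.11) and Adrb1 (5.07 ± 2.46) in turn. In Hmox2-/- ECs the first 5 places were the same, and Adra1a (5.62 ± 2.74) stood above Adcy5 (5.45 ± 3.35) with overlap.

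**Figure D1:**
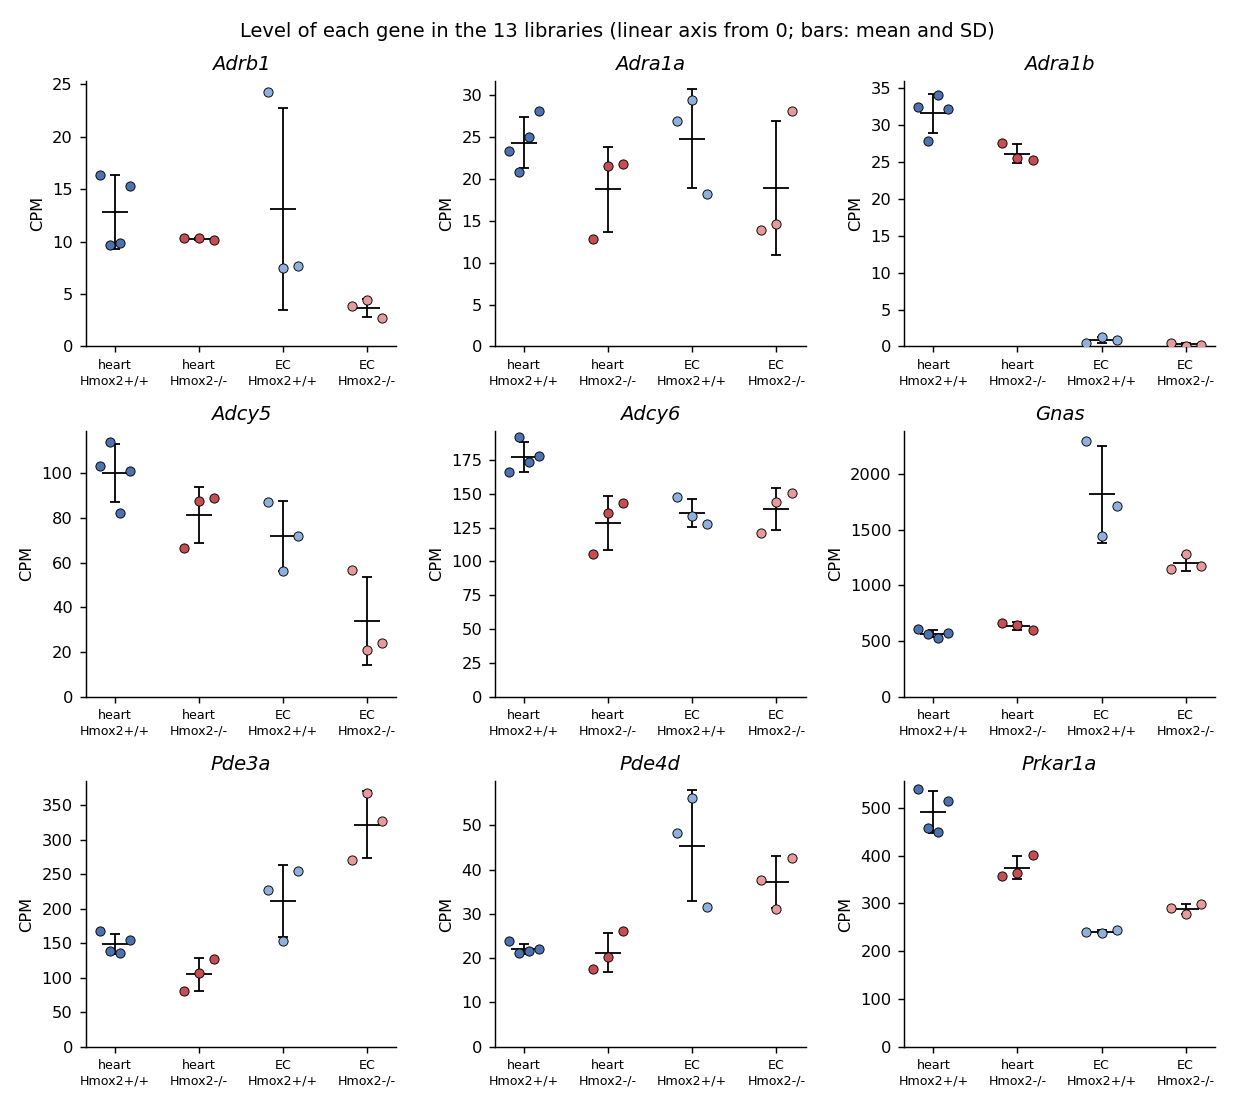
Level of the 9 genes in CPM on linear axes from 0, one point per library, with the mean and SD of each group of Hmox2+/+ and Hmox2-/- hearts (4 and 3 libraries) and ECs (3 and 3). Each tissue was normalized on its own. Adcy6, Pde3a, Prkar1a and Adra1b did not overlap between genotypes in hearts, and Adra1b was close to 0 in ECs.

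In heart tissue 3 of the 9 genes were lower in Hmox2-/- mice and none was higher at an adjusted p of at most 0.05. These were Adcy6, Pde3a and Prkar1a. This is 33.3% of the genes, against 33.4% of all 13818 genes tested in heart tissue (16.2% lower and 17.2% higher), so the share was near that of all genes. None reached the fold change of 2 that the study required, which 6.71% of all genes did with the same adjusted p. The CPM ranges of the genotypes did not overlap for 4 of the 9 in hearts, against 40.4% of all genes, and for 4 of the 9 in ECs, against 40.7%. The median log2 fold change of the 9 genes was -0.30, against -0.01 over all genes tested. In ECs 1 of the 9 genes passed, Adrb1, which was lower, against 18.1% of 15303 genes tested (8.06% lower and 10% higher). Its fold change also exceeded 2, as for 9.28% of all genes. Of the 9 genes, 5 in hearts and 4 in ECs had an unadjusted p under 0.05. The share of all genes at that unadjusted p was not counted, so these counts show no excess. The median log2 fold change of the 9 in ECs was -0.39, against -0.02 over all genes. Differences between the tissues were tested as a tissue by genotype interaction, and 4 of the 9 genes passed, against 28.9% of 15911 genes. All adjusted p-values are from the quasi-likelihood F-test of edgeR with Benjamini-Hochberg adjustment over all genes tested, and log2 fold changes are Hmox2-/- over Hmox2+/+.

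**Figure D2:**
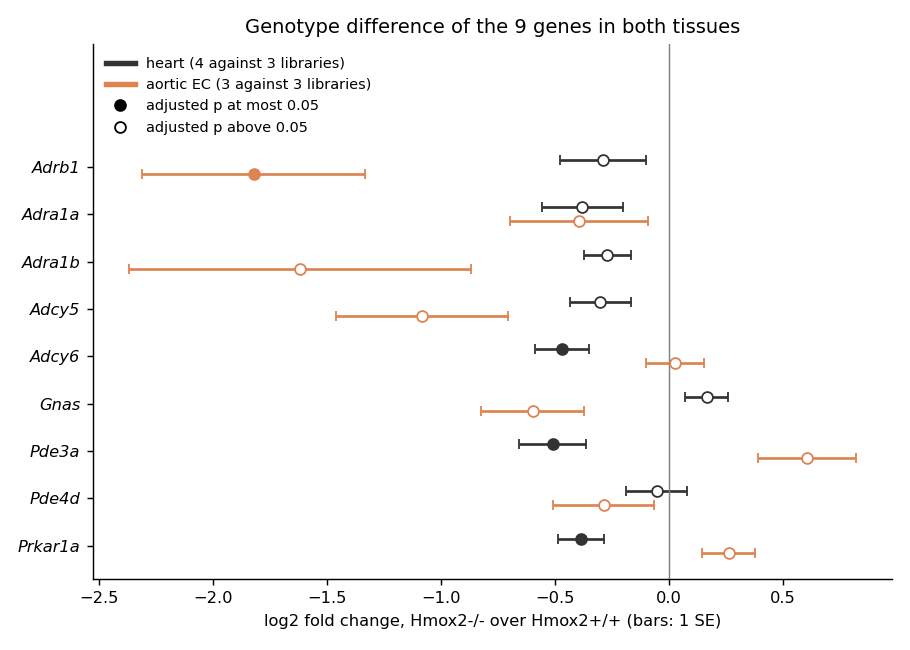
Log2 fold change of Hmox2-/- over Hmox2+/+ for the 9 genes in heart tissue (dark) and aortic ECs (orange), with bars of 1 standard error and filled points where the adjusted p was at most 0.05. Filled points are Adcy6, Pde3a and Prkar1a in hearts and Adrb1 in ECs.

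Adrb1 (chromosome 19, 56710631 to 56721545, plus strand of GRCm39), the main beta receptor of the cardiomyocyte, had 16.4, 9.63, 9.90 and 15.3 CPM in the 4 Hmox2+/+ hearts and 10.3, 10.3 and 10.2 CPM in the 3 Hmox2-/- hearts. The Hmox2-/- hearts lay within the wildtype range, and the difference did not pass (log2 fold change -0.29, SE 0.188, adjusted p = 0.254). In ECs it had 24.2, 7.45 and 7.66 CPM in Hmox2+/+ libraries and 3.90, 4.44 and 2.76 CPM in Hmox2-/- libraries. The ranges did not overlap, and the first wildtype library stood above the others. The fall in ECs was the one that passed there (log2 fold change -1.82, SE 0.489, adjusted p = 0.0412). Without the first Hmox2+/+ library the log2 fold change was -1.03 with an adjusted p of 0.0569, and without any 1 of the 3 Hmox2-/- libraries the adjusted p was 0.0885 to 0.144. Without both libraries low in Ddx3y it was -1.74 with an adjusted p of 0.378, and none of the 9 genes then passed in ECs. That first wildtype library also had the highest summed smooth muscle markers of the 6 EC libraries (6050 CPM), and their part in the difference was not tested. The difference between tissues passed (1.56 higher in heart on the log2 scale, SE 0.523, adjusted p = 0.038), but was lost in 8 of 13 fits that left out 1 library (adjusted p up to 0.0971).

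The alpha1 receptors differed from each other by tissue. Adra1a (chromosome 14, 66872700 to 67012152, plus strand) had 23.4, 20.8, 25.0 and 28.0 CPM in Hmox2+/+ hearts and 12.8, 21.6 and 21.8 CPM in Hmox2-/- hearts. The first Hmox2-/- heart was low and the others overlapped the wildtype range (log2 fold change -0.38, SE 0.179, adjusted p = 0.121). In ECs it had 26.8, 29.4 and 18.1 CPM in Hmox2+/+ and 13.9, 14.6 and 28.1 CPM in Hmox2-/- libraries, which overlapped (-0.39, SE 0.302, adjusted p = 0.384). Adra1b (chromosome 11, 43665433 to 43792037, minus strand) had 32.4, 27.8, 34.0 and 32.1 CPM in Hmox2+/+ hearts and 27.6, 25.6 and 25.3 CPM in Hmox2-/- hearts. Every Hmox2-/- heart lay below every wildtype heart by a small margin, and the test missed the threshold (-0.27, SE 0.102, adjusted p = 0.0597). In ECs Adra1b had 0.480, 1.24 and 0.865 CPM in Hmox2+/+ and 0.531, 0.0383 and 0.257 CPM in Hmox2-/- libraries, close to absence, and the groups overlapped (-1.62, SE 0.750, adjusted p = 0.167).

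Gnas (chromosome 2, 174126022 to 174188537, plus strand), which encodes the alpha subunit of the stimulatory G protein, had 607, 563, 523 and 571 CPM in Hmox2+/+ hearts and 662, 647 and 594 CPM in Hmox2-/- hearts. The groups overlapped, and the difference did not pass (log2 fold change 0.17, SE 0.0945, adjusted p = 0.199). In ECs it had 2295, 1442 and 1713 CPM in Hmox2+/+ and 1145, 1285 and 1170 CPM in Hmox2-/- libraries. All 3 Hmox2-/- libraries were below the wildtype ones, with an adjusted p above the threshold (-0.60, SE 0.225, adjusted p = 0.102). The difference between the tissues passed (0.80 higher in heart, SE 0.224, adjusted p = 0.0167). It was 0.37 with an adjusted p of 0.245 with an offset for length and GC content in the fit, and 0.78 with an adjusted p of 0.0631 with the replicate number as a block. On the TPM scale, which is not normalized between libraries, Gnas in hearts was at 333 ± 41.1 TPM in Hmox2+/+ and 463 ± 5.73 TPM in Hmox2-/- mice without overlap, and the latter libraries had the lower mitochondrial share.

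The transcripts Gnas-206, Gnas-207 and Gnas-208 differ by a short exon, which is shown because its share set the tissues apart. It covers chr2:174178540-174178584 (GRCm39, plus strand, 45 bases, coding) and is drawn in capitals between 20 transcript bases on each side. Gnas-206 joins these flanks directly, and Gnas-207 keeps 3 more bases of the next exon, chr2:174183443-174183445, in capitals.
Gnas-208: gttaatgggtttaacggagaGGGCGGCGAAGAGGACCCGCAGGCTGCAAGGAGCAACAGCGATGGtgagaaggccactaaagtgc
Gnas-206: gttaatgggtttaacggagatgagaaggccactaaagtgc
Gnas-207: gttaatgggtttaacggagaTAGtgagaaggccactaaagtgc
Transcripts with the exon held 32.2%, 34.8%, 35.3% and 34.9% of the summed Gnas TPM in the 4 Hmox2+/+ hearts and 36.2%, 39.96% and 36.7% in the 3 Hmox2-/- hearts. The Hmox2-/- hearts lay above the wildtype hearts. In ECs they held 53.8%, 63.1% and 63.6% in Hmox2+/+ and 60.4%, 59.5% and 61.9% in Hmox2-/- libraries, which overlapped. Every EC library was therefore above every heart, by at least the step from 39.96% to 53.8%. The coding lengths are 1182, 1140 and 1137 bases for Gnas-208, Gnas-207 and Gnas-206. These shares are a description without a test, since the assignment of reads among transcripts has an error that the files do not give.

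Adcy5 and Adcy6 are the main cyclases of the cardiomyocyte, and of the 2 only Adcy6 passed, in hearts; the genes were not tested against each other. Adcy5 (chromosome 16, 34975023 to 35126113, plus strand, 30.4 Mb from Hmox2) had 103, 114, 82.3 and 101 CPM in Hmox2+/+ hearts and 66.8, 87.6 and 89.2 CPM in Hmox2-/- hearts. The groups overlapped and the difference did not pass (log2 fold change -0.30, SE 0.134, adjusted p = 0.103). In ECs Adcy5 had 87.3, 56.1 and 72.1 CPM in Hmox2+/+ and 56.7, 21.1 and 23.8 CPM in Hmox2-/- libraries. The Hmox2-/- libraries of replicates 2 and 3, those with little Ddx3y, were below all wildtype libraries, and the first one lay at the lowest of them (-1.08, SE 0.376, adjusted p = 0.0835). Adcy6 (chromosome 15, 98487854 to 98507957, minus strand) had 166, 192, 174 and 178 CPM in Hmox2+/+ hearts and 106, 136 and 143 CPM in Hmox2-/- hearts. All 3 Hmox2-/- hearts were below all 4 wildtype hearts, at 72.2% of their mean (-0.47, SE 0.117, adjusted p = 0.0113). In ECs Adcy6 had 148, 134 and 127 CPM in Hmox2+/+ and 121, 144 and 151 CPM in Hmox2-/- libraries, which overlapped (0.03, SE 0.129, adjusted p = 0.901). The interaction missed the threshold for both (Adcy5 0.82, adjusted p = 0.146, and Adcy6 -0.45, adjusted p = 0.0804). Adcy6-202, an annotated transcript with a retained intron, took 30.96% to 39.5% of the Adcy6 TPM of wildtype hearts and 28.8% to 35.9% of that of knockouts. For ECs the wildtype share spanned 35.5% to 47.6% and the knockout share 47.0% to 57.1%.

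Pde3a and Pde4d, which break down cyclic AMP, were examined next. Pde3a (chromosome 6, 141194888 to 141453174, plus strand), the target of milrinone, had 167, 138, 136 and 155 CPM in Hmox2+/+ hearts and 80.7, 106 and 127 CPM in Hmox2-/- hearts. The Hmox2-/- hearts were below all wildtype hearts, at 70.1% of their mean (log2 fold change -0.51, SE 0.145, adjusted p = 0.0202). In ECs it had 227, 153 and 254 CPM in Hmox2+/+ and 271, 368 and 327 CPM in Hmox2-/- libraries. There all Hmox2-/- libraries were above the wildtype ones, with an adjusted p above the threshold (0.61, SE 0.215, adjusted p = 0.0882). Without the Hmox2+/+ heart of replicate 1 or 4 or the Hmox2-/- heart of replicate 2, the heart call was lost (adjusted p = 0.0569, 0.0503 and 0.0641). The difference between tissues passed (-1.07, SE 0.275, adjusted p = 0.0108), but not with the offset for length and GC content (-0.44, adjusted p = 0.127). Pde3a is the longest of the 9 genes, with a listed main transcript of 12302 bases, and its GC content is 43.5%; its heart value changed with an offset for both.

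Long genes were lower and short genes higher in Hmox2-/- hearts. The median log2 fold change was -0.63 over 316 tested genes of 8000 bases or more, -0.31 over 2789 genes of 4000 to 8000 bases, -0.04 over 5841 genes of 2000 to 4000 bases and 0.55 over 1168 genes under 1000 bases. Heart values also went with GC content. Their median was -0.36 over 625 genes under 40% GC and 0.11 over 3295 genes of 55% GC or more. In ECs the medians of the length bins lay between -0.22 and 0.03, and values there went with GC content in the other direction. The EC median was 0.71 over 874 genes under 40% GC, with 360 of 370 genes that passed higher, and -0.19 over 3499 genes of 55% GC or more, with 469 of 614 lower. Adrb1 has a GC content of 57.9%, and with the offset it did not pass in ECs (-1.68, adjusted p = 0.062). With an offset for length and GC content in the fit, Pde3a in hearts was at 0.25 (adjusted p = 0.0583), so its fall was lost and its sign turned. Counts from length-scaled TPM, which adjust for transcript usage without GC content, left it at -0.51 (adjusted p = 0.0378). With the offset Adcy5 (0.08) and Gnas (-0.06) changed sign too. Adcy6 (-0.28, adjusted p = 0.0178) and Prkar1a (-0.25, adjusted p = 0.0375) still passed, and Adra1b passed as well (-0.40, adjusted p = 0.0117). Of the 202 genes of 8000 bases or more that passed in hearts, 201 were lower and 1 was higher. The mitochondrial share of the counts also differed between the genotypes in hearts, and its part in the shift was not tested.

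**Figure D3:**
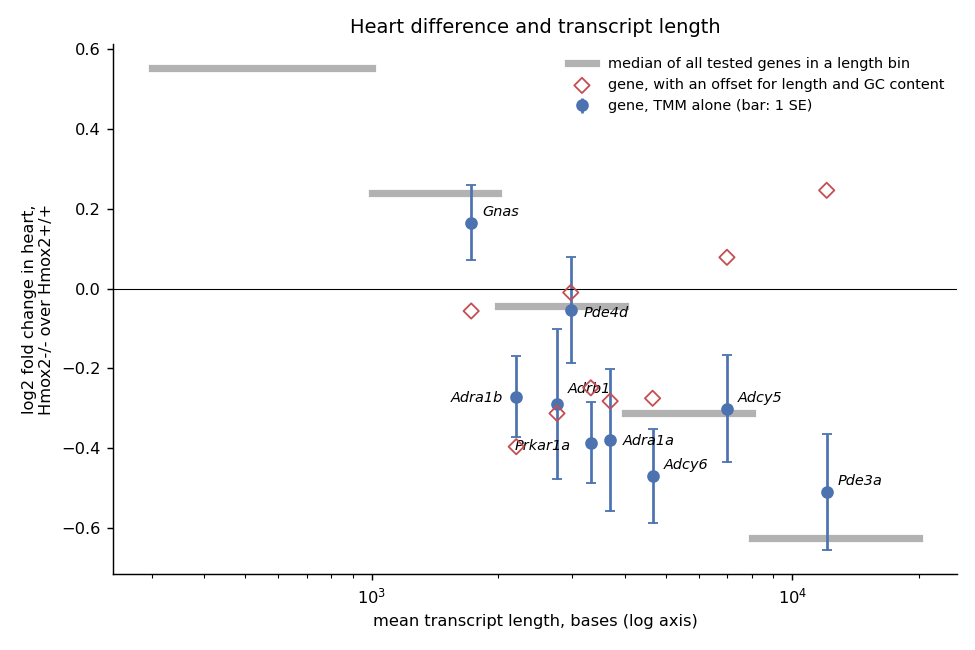
Log2 fold change in heart tissue against the mean transcript length on a log axis for the 9 genes, without (filled circles, bar 1 standard error) and with an offset for length and GC content (open diamonds), and the median of all tested genes in 5 length bins (grey lines). The grey medians go from 0.55 for short to -0.63 for long genes, and Pde3a goes from -0.51 to 0.25.

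Pde4d (chromosome 13, 108586482 to 110092497, plus strand), which is held at the ryanodine receptor and at beta receptors, had 23.8, 21.2, 21.6 and 22.0 CPM in Hmox2+/+ hearts and 17.5, 20.2 and 26.1 CPM in Hmox2-/- hearts. The Hmox2-/- hearts lay on both sides of the wildtype ones (log2 fold change -0.05, SE 0.133, adjusted p = 0.784). In ECs it had 48.3, 56.1 and 31.6 CPM in Hmox2+/+ and 37.7, 31.1 and 42.7 CPM in Hmox2-/- libraries, which overlapped (-0.29, SE 0.221, adjusted p = 0.387). The gene has several starts, which give long and short proteins, and the first coding bases of 4 transcripts are shown because 3 of them had shares that did not overlap between genotypes in hearts while the sum did not pass. Start codons are in capitals, and Pde4d-213 is annotated without its start. They begin at chr13:108996700-108996735, chr13:109769314-109769349, chr13:109822690-109822725 and chr13:110039975-110040010 (GRCm39, plus strand).
Pde4d-209: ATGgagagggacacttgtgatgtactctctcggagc
Pde4d-213: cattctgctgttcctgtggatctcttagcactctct
Pde4d-201: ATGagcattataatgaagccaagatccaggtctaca
Pde4d-207: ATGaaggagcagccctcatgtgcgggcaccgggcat
Pde4d-209, with the longest coding sequence of the 4 (2241 bases), held 12.9% to 39.3% of the summed Pde4d TPM of wildtype hearts but 4.77% to 9.14% of that of knockouts. Pde4d-213 held 0 to 1.55% among wildtype hearts but 5.20% to 13.7% among knockouts, and Pde4d-207, the short form (1752 bases), 33.9% to 39.2% and 42.0% to 46.8%. None of these 3 ranges overlapped between genotypes. The share of all transcripts without overlap was not counted, and the CPM of 40.4% of all genes tested in hearts did not overlap. The first Hmox2+/+ heart had only 160 counts of Pde4d. Pde4d-201 held 1.47% to 7.45% and 6.01% to 21.4%, which overlapped. In ECs Pde4d-209 held at most 1.89% of the TPM, Pde4d-213 held 17.5% to 30.4% for wildtype and 11.1% to 17.1% for knockout libraries, and Pde4d-207 held 35.0% to 46.7% and 53.1% to 53.8%. Pde4d-209 was listed with 2554 bases against 7043 in the newer annotation, and reads from the added bases could not be assigned to it. In hearts the levels behind these shares were 2.23 ± 1.02 and 0.672 ± 0.293 TPM of Pde4d-209 (n = 4 and 3), and no test was made on them.

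**Figure D4:**
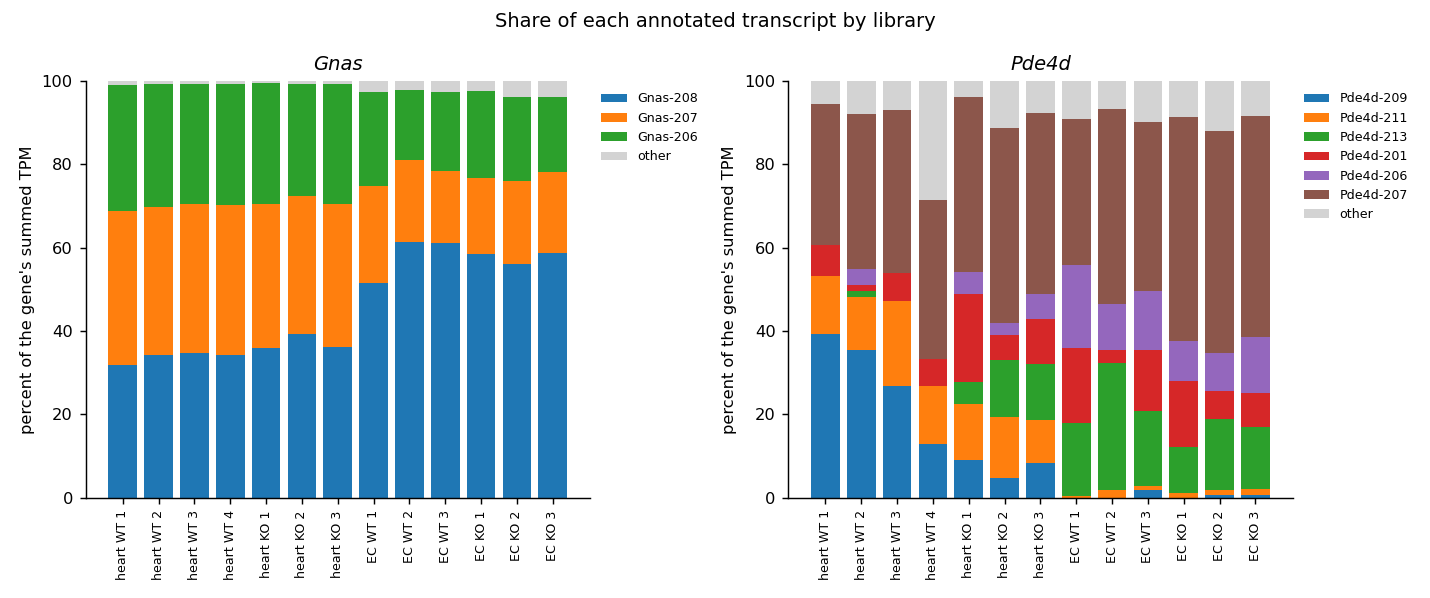
Share of the summed TPM of Gnas and of Pde4d held by each annotated transcript, in percent, one bar per library. Gnas-208 holds 31.8% to 39.4% in hearts and 51.6% to 61.3% in ECs, and Pde4d-209 holds less in Hmox2-/- than in Hmox2+/+ hearts.

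Prkar1a (chromosome 11, 109513434 to 109560633, plus strand), the regulatory subunit that holds PKA inactive until cyclic AMP binds, had 540, 458, 450 and 515 CPM in Hmox2+/+ hearts and 358, 365 and 402 CPM in Hmox2-/- hearts. All 3 Hmox2-/- hearts were lower, at 76.4% of the wildtype mean (log2 fold change -0.39, SE 0.102, adjusted p = 0.0147). Without the second Hmox2-/- heart the adjusted p was 0.0651. In ECs it had 239, 239 and 245 CPM in Hmox2+/+ and 289, 278 and 299 CPM in Hmox2-/- libraries. The Hmox2-/- libraries were higher without overlap, and the test did not pass (0.26, SE 0.115, adjusted p = 0.151). The difference between tissues passed (-0.61, SE 0.163, adjusted p = 0.0137), but not under every alternative of processing (adjusted p up to 0.067). On the TPM scale the hearts overlapped (141 ± 17.2 and 134 ± 18.03 TPM). Prkar1a-203 held 34.4% to 40.9% of the TPM of wildtype hearts and 28.2% to 34.2% of that of knockouts, and Prkar1a-201 held 56.3% to 64.4% and 64.2% to 70.8%. Both have a coding length of 1143 bases.

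PKA is known to act on genes through CREB, which binds the palindrome TGACGTCA. The 250 bases before each RefSeq start were searched for it (GRCm38.p6, both strands, which read the same). Of the 9 genes, 6 had an entry, and Adra1a, Adcy6 and Pde3a had none. The full palindrome was in 1 of the 6 windows of Prkar1a and in none of the other members, against 1.55% of 32851 windows of all genes. The window that holds it is shown with the palindrome in capitals, 49 bases before the start, at chr11:109650699-109650948 (plus strand).
Prkar1a: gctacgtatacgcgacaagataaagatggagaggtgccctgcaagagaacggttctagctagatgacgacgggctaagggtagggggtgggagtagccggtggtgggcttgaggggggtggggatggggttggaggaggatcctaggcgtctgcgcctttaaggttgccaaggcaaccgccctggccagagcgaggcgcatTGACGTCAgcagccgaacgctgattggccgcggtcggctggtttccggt
The shorter motif TGACG, which the palindrome contains, read on either strand, was in the window of Adrb1, in 3 of 4 windows of Gnas and in 3 of 6 windows of Prkar1a, against 17.8% of all windows, and in none of Adra1b, Adcy5 and Pde4d. These are matches of letters and not evidence of binding.

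The other genes of the pathway, 95 in all, were listed by role, also with earlier results of these data known. In heart tissue 89 were tested, and 28 passed (6 higher and 22 lower), which is 31.5% against 33.4% of all genes. Anchoring proteins of PKA were lower: 6 of 8 passed, among them Akap5 (log2 fold change -1.26, adjusted p = 0.00315), Akap9 (-0.84, adjusted p = 0.00612), Akap6 (-0.78, adjusted p = 0.00399) and Akap11 (-0.74, adjusted p = 0.00714). With the offset for length and GC content Akap5 and Akap9 still passed, while Akap11 (-0.25) did not and Akap6 was at 0.01. Under the alternatives that kept all hearts, Akap5 came to as little as -0.86 and Akap9 to -0.29. Of the CREB factors and coactivators 4 of 7 were lower, among them Crebbp (-0.54, adjusted p = 0.0128), which lies 0.512 Mb from Hmox2 and did not pass with the offset (-0.04). Of the other adenylyl cyclases, Adcy1, which is activated by calcium and calmodulin, had 24.1, 21.1, 22.3 and 15.6 CPM in Hmox2+/+ hearts and 1.32, 2.30 and 2.39 CPM in Hmox2-/- hearts. It fell further than any other listed pathway gene in hearts (-3.36, SE 0.223, adjusted p = 2.69e-06). In ECs Adcy1 had 26.7, 6.32 and 7.51 CPM in Hmox2+/+ and 0.390, 0.192 and 0.331 CPM in Hmox2-/- libraries (-5.44, SE 0.708, adjusted p = 0.00488).

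Chrm2, the muscarinic receptor through which the vagus opposes beta receptors, fell in hearts from 183 ± 15.4 to 104 ± 20.3 CPM (-0.81, adjusted p = 0.00174). Rgs2 (-0.83, adjusted p = 0.00445), which shortens the signal of alpha1 receptors, and Gnao1 (-0.58, adjusted p = 0.00887), an inhibitory G protein gene, were also lower. Among the other phosphodiesterases 3 were lower (Pde4c, Pde7b and Pde8b) and 2 were higher (Pde4b at 0.33, adjusted p = 0.0273, and Pde8a at 0.54, adjusted p = 0.00504). The cyclic AMP binding Popeye genes Popdc2 (0.51, adjusted p = 0.00369) and Popdc3 (0.50, adjusted p = 0.0112) rose; Popdc3 is named here after its value was seen. Prkar1b, the other type I regulatory subunit, rose from 1.05 ± 0.303 to 1.96 ± 0.404 CPM (0.81, adjusted p = 0.0376), a level far below that of Prkar1a. The catalytic subunit Prkaca did not pass, with 226 ± 3.37 and 227 ± 4.53 CPM (0.01, adjusted p = 0.947), and Prkar2a was lower (-0.34, adjusted p = 0.032). Leaving out 1 heart at a time, Prkar1b and Prkar2a lost their calls in 6 of 7 fits each (adjusted p up to 0.12 and 0.106) and Pde4b in 5 of 7 (up to 0.0821), while Adcy1, Chrm2 and Rgs2 passed in all 7. Under the alternatives that kept all hearts, Chrm2 ranged from -0.82 to -0.35. Prkar1b ranged from 0.036 to 0.94 there (adjusted p up to 0.956). Adrb3 was too low to be tested in hearts. None of the 6 effectors of alpha1 receptors passed.

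**Figure D5:**
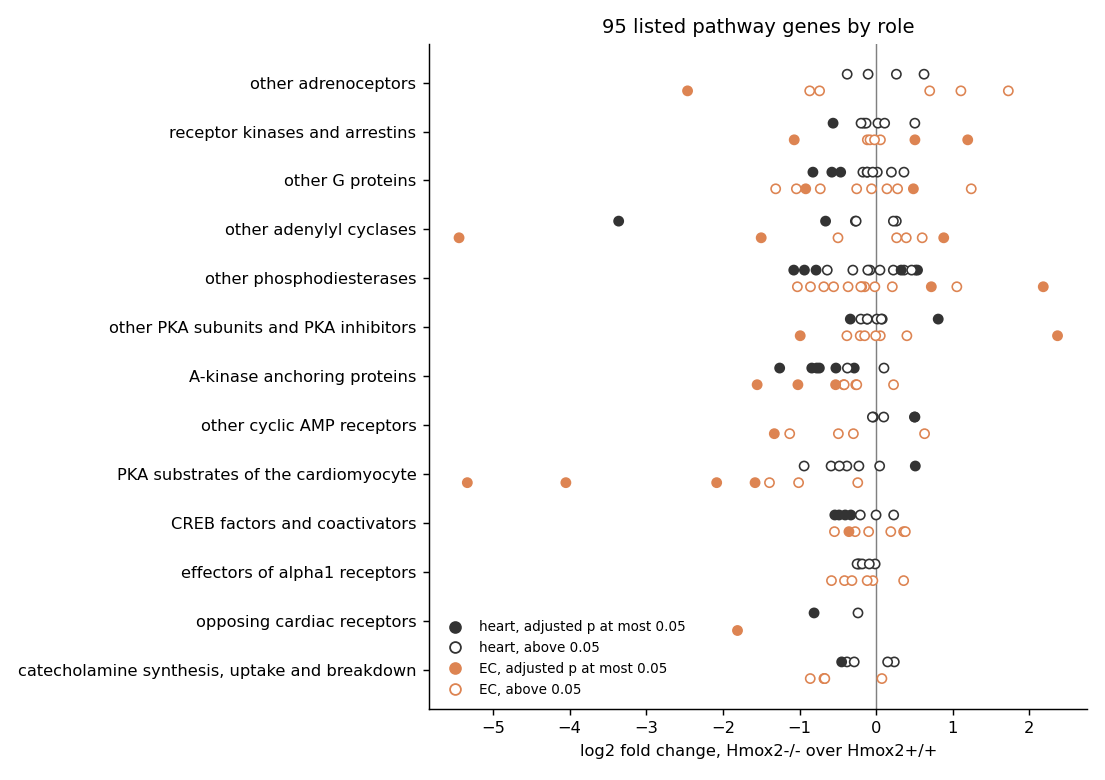
Log2 fold change of Hmox2-/- over Hmox2+/+ for the 95 listed pathway genes by role, in heart tissue (dark) and ECs (orange), one point per gene tested and filled where the adjusted p was at most 0.05. In hearts 6 of 8 anchoring proteins are filled and lower, and in ECs the PKA substrates of the cardiomyocyte reach -5.33.

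In ECs 90 of the 95 genes were tested and 23 passed (7 higher and 16 lower), which is 25.6% against 18.1% of all genes. The lowest besides Adcy1 were PKA substrates of the cardiomyocyte: Mybpc3 (-5.33, adjusted p = 0.00183), Tnni3 (-4.05, adjusted p = 0.00845) and Pln (-2.08, adjusted p = 0.0433). These fell with all 7 cardiomyocyte markers, which include Tnni3 itself. The sum of the markers spanned 112 to 464 CPM among wildtype ECs and 3.58 to 6.69 CPM among knockouts. Adra1d, an alpha1 receptor of vascular smooth muscle, fell from 11.2 ± 6.92 to 2.02 ± 1.24 CPM (-2.46, adjusted p = 0.0271), and smooth muscle markers, of which 2 of 5 were lower, summed to between 3100 and 6050 CPM for wildtype ECs and between 983 and 3450 CPM for knockouts. The part of these cells in the values of Adrb1, Adra1d, Adcy5 and Gnas was not tested. Prkaca (-0.99, adjusted p = 0.0164) and Adcy9 (-1.50, adjusted p = 0.013), which lies 0.306 Mb from Hmox2, were lower. Pkib (2.37, adjusted p = 0.00631), an inhibitor of PKA, and Pde1c (2.18, adjusted p = 0.0475) were higher from levels near 1 CPM or less. Leaving out 1 EC library at a time, Pde1c passed in none of 6 fits (adjusted p = 0.053 to 0.17), Adra1d and Pln were lost in 3, Prkaca in 2, and Adcy9 and Tnni3 in 1, while Adcy1, Mybpc3 and Pkib passed in all 6. Adrb3, the beta receptor of adipocytes, spanned 65.5 to 129 CPM among wildtype ECs and 35.2 to 97.0 CPM among knockouts, which overlapped (-0.74, adjusted p = 0.223). Endothelial markers (3 of 7 higher and 1 lower) and fibroblast markers (3 of 5 higher) summed to 2910 to 4240 and 2090 to 3980 CPM for wildtype ECs, and to 5150 to 6350 and 5260 to 6080 CPM for knockouts.

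The genes most like a member across the 7 hearts were taken by the root mean square difference of log2 CPM centred on each gene's mean. For Adcy6 these were 2510009E07Rik (0.0358) and Ptprm (0.0404), for Prkar1a Btg1 (0.0317) and Fyn (0.0425), for Pde3a Zmym6 (0.046) and Lemd3 (0.0469), and for Gnas Rnf220 (0.0308) and Mul1 (0.0364). The median difference over all genes tested in hearts was 0.281 to 0.421. The members' own spread was 0.118 to 0.357.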

How the data were processed

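RNA-seq was performed on 7 hearts and 6 aortic EC preparations (Illumina, described as 100 bp paired-end). Per the study's methods, the authors quantified transcripts with Kallisto 0.44.0 against GENCODE M32, and they deposited estimated counts and TPM per transcript for each library, without normalization between libraries. The submitters' processing notes also list the builds mm10 and GRCh38.p13. The deposited effective lengths correspond to 1 fixed fragment length of 180 bases in every library, and whether read pairs were used is not given in the sources used here. Kallisto at its defaults does not use strand, so overlapping antisense genes cannot be told apart.

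Of 118489 listed transcripts, 115191 (97.22%) matched GENCODE M39 by identifier without version, and values were summed over 36158 genes. Unmatched transcripts held 0.7466% to 1.009% of the counts. Gene sums were rounded and fitted with edgeR 4.0.16 in R 4.3.3 (filterByExpr with a minimum count of 10, TMM, quasi-likelihood F-test) within each tissue, and over all 13 libraries for the interaction. Genes passed where p, adjusted over all genes by Benjamini-Hochberg, did not exceed 0.05. The SE is the absolute log2 fold change divided by the square root of F. The first Hmox2+/+ heart has the lowest depth (7268626 counts), so its low counts are the least precise. On simulated counts with 200 genes changed by 2 on the log2 scale, the heart fit recovered 199, the EC fit 187 and the interaction fit 175. Unchanged genes called were 14, 5 and 11. The largest heart change among the members, that of Pde3a, was -0.51. Changes of that size were not simulated, so these counts do not show how often the fits would find them. The labels do not tie EC and heart libraries to a mouse, and p-values measure the spread between these libraries.

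The 9 genes and all lists were chosen with earlier results of these data known. The pathway genes named are up to 15 per tissue that passed with the largest absolute log2 fold change, close relatives of the 9 genes, and Adcy9 and Crebbp near Hmox2; a gene named outside this rule is said to be. A listed gene is counted but not reported here by name. Alternatives were DESeq2 1.42.0, other scalings, no low-count filter, length-scaled TPM, a replicate block, omission of mitochondrial genes, an offset for length and GC content, 1 joint fit and omission of each library.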

Additional observations from a re-analysis of the deposited data

Results flagged for a closer look

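In the 4 Hmox2+/+ hearts, 1 library stood apart from the other 3 for Prkar1b (gap over range 0.904) and for Pln (0.942) by Dixon's criterion on CPM, which chance meets in about 1 in 20 groups. The criterion was applied to all named genes, so a few such cases are expected by chance. For Prkar1b the library was the first Hmox2+/+ heart, the one of lowest depth, with 4 counts.

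The log2 fold change in heart minus that in ECs passed the interaction test (edgeR, adjusted p at most 0.05) for 4 of the 9 genes. It was 1.56 for Adrb1, 0.80 for Gnas, -1.07 for Pde3a and -0.61 for Prkar1a. The call of Adrb1 was lost in 8 of 13 fits that left out 1 library, with an adjusted p of up to 0.0971 and a value as low as 0.78, and also with length-scaled TPM (1.38, adjusted p = 0.0628) and the offset (1.33, adjusted p = 0.093). Gnas, Pde3a and Prkar1a passed in all 13. Among the alternatives that kept all libraries, the adjusted p of Prkar1a reached 0.067, so its call was not kept in each of them. With the offset for length and GC content, Adcy6 (-0.51, adjusted p = 0.0198) and Prkar1a passed, and Gnas (0.37, adjusted p = 0.245) and Pde3a (-0.44, adjusted p = 0.127) did not.

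Among the named pathway genes the difference was positive for Mybpc3 (5.41), Tnni3 (4.6), Adra1d (3.12), Adcy1 (2.11), Pln (1.90), Popdc2 (1.87), Adora1 (1.62), Adcy9 (1.28), Cacna1c (1.24), Pde4b (1.22), Akap1 (1.16), Pde8a (1.14), Prkaca (1.04) and Pde4a (0.94). It was negative for Pkib (-2.43), Pde1c (-2.10), Adcy7 (-1.01) and Akap11 (-0.92). Of the 94 listed pathway genes tested in the interaction, 30 passed (20 higher and 10 lower). This is 31.9% against 28.9% of all genes. Adcy1 was close to the threshold (adjusted p = 0.049 in the interaction test). The interaction of single pathway genes was not followed under the alternatives. Cardiomyocyte markers fell in ECs of Hmox2-/- mice from 112 to 464 CPM to 3.58 to 6.69 CPM in sum, and their part in these differences was not tested.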

How the results depend on the processing

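Adcy6 in hearts passed under all alternatives run. Prkar1a in hearts was lost with the block and without 1 library, and kept its call with the offset. With the replicate number as a block, 1 of the 9 genes (Adcy6) and 17 pathway genes passed in hearts, and 2 of the 9 (Adrb1 and Adcy5) in ECs. Correlations of same-numbered libraries were -0.034, 0.077 and 0.037 in hearts and 0.181, 0.04 and 0.087 in ECs, so the numbers were not taken to pair the mice. In ECs 5 of the 9 genes passed with DESeq2 and 5 in 1 fit of all 13 libraries (42 pathway genes), and 0 with length-scaled TPM or the offset for length and GC content. Without both EC libraries low in Ddx3y, an alternative chosen after seeing the data that leaves 1 Hmox2-/- library assumed to vary like the others, 0 members and 0 pathway genes passed in ECs and 0 members in the interaction. The offset left 2 members in the interaction. Leaving out 1 library gave 1 to 4 members and 18 to 38 pathway genes in hearts, and 0 to 1 and 4 to 30 in ECs.

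Signs turned in hearts with the offset for Pde3a (0.25), Adcy5 (0.078), Gnas (-0.056), Gnal (0.076), Prkaca (-0.10), Prkacb (0.14), Akap6 (0.015) and Cacna1c (0.038), and with length-scaled TPM for Pkib (0.77). In ECs they turned with upper-quartile scaling for Prkar2a (0.062), Pde8b (0.051) and Rgs2 (0.012), without the low-count filter for Prkar2a (8.05e-05), with length-scaled TPM for Pde8b (0.16), Prkar1b (-0.83) and Akap11 (-0.11), with the offset for Prkar2a (0.067), in 1 fit for Adcy6 (-0.012), and without both Ddx3y-low libraries for Adcy6 (-0.16) and Akap11 (-0.021). The interaction of Adra1a was -0.053 with upper-quartile scaling. Leaving out 1 library, values ranged in hearts for Pde4d from -0.22 to 0.074, Gnal from -0.83 to 0.14, Prkaca from -0.0033 to 0.026, Mybpc3 from -0.030 to 0.11, Pkib from -0.45 to 0.051 and Pde1c from -0.068 to 0.17. In ECs they ranged for Adcy6 from -0.026 to 0.12, Prkar2a from -0.036 to 0.036, Pde8b from -0.32 to 0.16, Rgs2 from -0.30 to 0.20 and Prkar1b from -0.064 to 0.12, and in the interaction for Adra1a from -0.11 to 0.45. The causes were not tested.

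Over all genes, 2901 passed in hearts with the block against 4619, and in ECs 4314 passed in 1 fit and 49 without both Ddx3y-low libraries against 2767. Of the genes that passed, the share higher in the interaction was 56.1%, against 45.9% with upper-quartile scaling and 41.3% with the offset, and in ECs it was 55.4%, against 44.6% in 1 fit. Low levels such as Adra1b in ECs are limited by depth.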
